A study of Mus musculus with 8 samples.

Results

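The immunity-related GTPases (IRGs) are a family of interferon-inducible proteins of mouse cells, and their mRNAs were examined here in lung neutrophils. The family was taken by gene symbol as Irgm1, Irgm2, Igtp, Iigp1, Ifi47, Tgtp1, Tgtp2 and Irgc1. A row of the expression table was found for 6 of these 8 genes, among 24625 rows in all, and Irgm2 and Tgtp1 had no matched row. The neutrophils came from the lungs of wild type mice, 6 to 12 weeks old by their labels. The methods give a narrower age range and say that C57BL/6J females were bought, colonies were made from them and mice were matched by age and sex. Mice had been instilled through the trachea, into the left lung, with Streptococcus pneumoniae (SP) or with phosphate-buffered saline (PBS) at 2.3 µl per g of body weight. Neutrophils were bound to magnetic beads through Ly6G, a surface protein of mouse neutrophils, 24 h later. There were 4 SP and 4 PBS samples, each on its own Affymetrix Mouse Gene 1.1 ST array. The labels do not say whether each sample came from a separate mouse, so p-values measure the spread between these samples only. The methods evaluated purity in the pneumonia samples and not in the PBS samples.

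IRG proteins are GTP-binding proteins that mouse cells make in response to interferons, above all interferon gamma. Regulators of the family (Irgm1, Irgm2 and Igtp, also called Irgm3) sit on the cell's own membranes and hold the effectors inactive there. Effectors such as Iigp1 (Irga6), Tgtp1 and Tgtp2 (Irgb6), Ifi47 (Irgd) and Gm12250 (Irgb10) gather on the membrane of vacuoles that hold microbes such as Toxoplasma and Chlamydia. Irgc1 is a relative known from the testis, not as an interferon response gene.

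During pneumonia, the 5 measured members known as interferon response genes (Irgm1, Igtp, Iigp1, Ifi47 and Tgtp2) rose by 6.70- to 20.6-fold. Of the 6 members with a row, 6 were called, that is, had a limma adjusted p no greater than 0.05, against 44.1% of all rows. The 6 were higher in SP and 0 lower, where 21.5% of all rows were called higher and 22.6% lower. At least 2-fold rises were found for 5 of the 6 members, against 6.37% of all rows. The lowest SP array exceeded the highest PBS array in all 6 genes and in 27.2% of all rows, and the groups were apart in either direction in 49.0% of rows. The median log2 difference of the 6 members was 3.02, and that of all rows 0.10. Values are log2 expression levels from arrays that were quantile-normalized before summarising probes, so a total change in RNA per cell is not measured. The array medians of the summarised values still differed, at 6.06 to 6.20 in PBS and 5.78 to 5.91 in SP. The shares of all rows that are called depend on this shift. In such bulk samples, fewer cells of a type and less RNA per cell cannot be told apart.

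The regulators are described first. Irgm1 (NM_008326), a regulator found on Golgi and lysosome membranes, had log2 levels of 9.83, 8.54, 9.33 and 9.18 in PBS replicates 1 to 4 and of 12.91, 12.73, 12.50 and 12.56 in SP replicates 1 to 4. The SP arrays were close to each other and the PBS arrays were spread more widely, with PBS replicate 1 highest and PBS replicate 2 lowest. Irgm1 rose 10.95-fold, from a mean of 9.22 ± 0.53 to 12.67 ± 0.19 (SD, n = 4), with a log2 difference of 3.45 (standard error 0.25, limma adjusted p = 2.52e-05). Igtp (NM_018738), a regulator of the endoplasmic reticulum and lipid droplets, had log2 levels of 9.999, 8.30, 9.32 and 8.97 in PBS and of 12.17, 12.29, 11.57 and 11.84 in SP. The order of the PBS arrays was that of Irgm1, and the lowest SP array (replicate 3) was 1.57 log2 units above the highest PBS array. Igtp rose 7.06-fold (log2 difference 2.82, standard error 0.34, adjusted p = 0.000315 by limma).

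Among the effectors on the list of members, which does not hold Gm12250, Ifi47 had the largest difference. Ifi47 (NM_001271676) had log2 levels of 8.66, 7.07, 7.75 and 7.53 in PBS and of 12.40, 12.25, 11.91 and 11.91 in SP. The groups were separated by 3.24 log2 units between the highest PBS and the lowest SP array. Ifi47 rose 20.6-fold, from 7.75 ± 0.67 to 12.12 ± 0.25 (SD, n = 4), with a log2 difference of 4.36 (standard error 0.31, limma adjusted p = 2.46e-05). By log2 difference it held rank 47 of the 24625 rows. Iigp1 (NM_001146275), the effector whose protein structure is best known, had log2 levels of 9.15, 7.38, 6.99 and 7.18 in PBS and of 11.07, 11.19, 10.33 and 11.02 in SP. PBS replicate 1 stood well above the other PBS arrays, and the gap between the groups was the narrowest of the 5 risers, at 1.18 log2 units. Iigp1 rose 9.37-fold (log2 difference 3.23, standard error 0.46, adjusted p = 0.000771 by limma), and its 95% interval of 2.18 to 4.28 on the log2 scale was the widest among the members. Tgtp2 (NM_001145164) had log2 levels of 10.65, 9.34, 9.05 and 9.35 in PBS and of 12.62, 12.61, 12.04 and 12.09 in SP, and the groups were 1.39 log2 units apart. Its rise was 6.70-fold (log2 difference 2.74, standard error 0.34, adjusted p = 0.000365 by limma). Tgtp1 and Tgtp2 encode nearly the same protein, and the row named Tgtp2 may hold signal of both genes. The 95% intervals of Igtp (2.05 to 3.59), Tgtp2 (1.97 to 3.52) and Iigp1 overlapped, and differences in response between members were not tested.

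Irgc1 (NM_199013) differed from the others in level and in size of change. Its log2 levels were 4.77, 4.67, 5.11 and 4.93 in PBS and 5.36, 5.60, 5.76 and 5.26 in SP. The groups did not overlap, but they were only 0.15 log2 units apart. Irgc1 was higher by 1.54-fold (log2 difference 0.62, adjusted p = 0.00763 by limma), which is below the 2-fold threshold. Its levels lay near those of the Y-linked genes Ddx3y, Kdm5d and Uty (4.33 to 4.90), which were taken as a floor, although the sex of the mice studied is not stated outright. All SP levels of Irgc1 were above that floor. Among the 3548 rows with a PBS mean within 0.25 log2 units of that of Irgc1, the median difference was 0.18 and 22.5% were called higher. Of those rows, 94.6% had a lower difference than Irgc1.

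**Figure D1:**
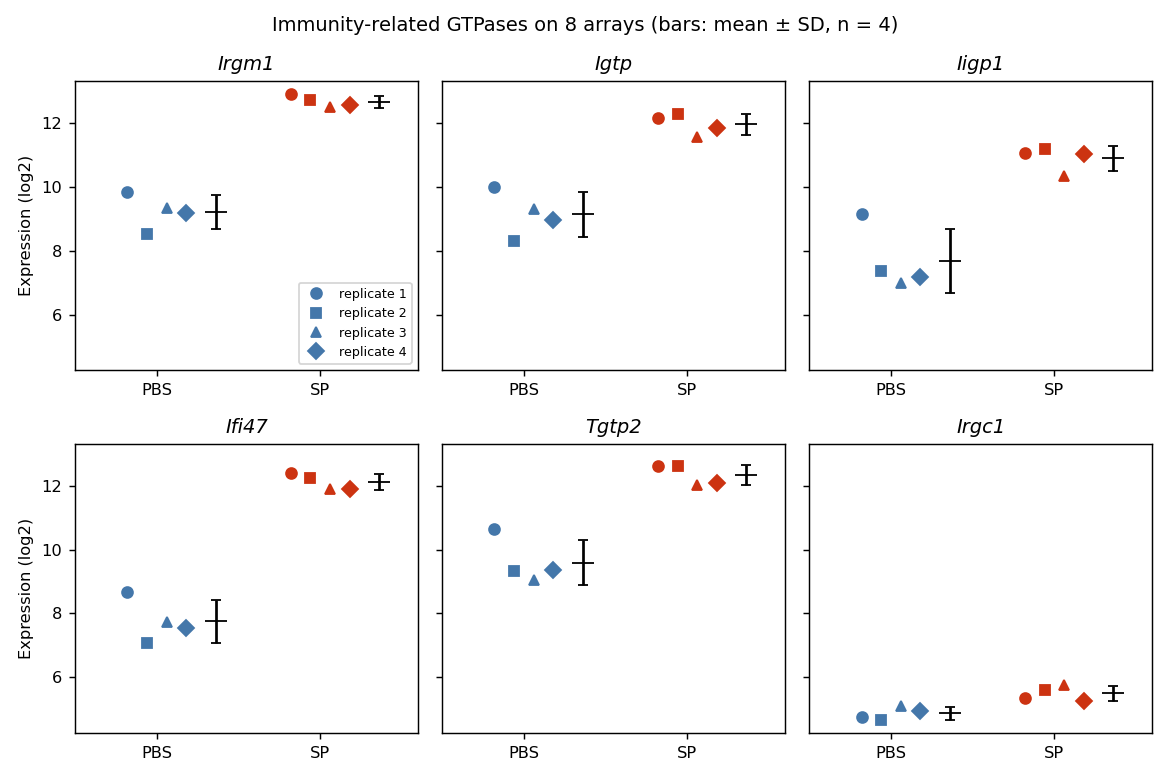
Log2 expression of the 6 measured IRG genes (vertical axis, shared) in PBS (blue) and SP (red) arrays. Symbols are replicates 1 to 4, and black bars are the mean ± SD (n = 4). All SP values lie above all PBS values, and PBS replicate 1 (circle) is the highest PBS array for every gene except Irgc1.

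The start sites of the family, including Gm12250 and Gm12185, relatives described further on, were read because its members moved together. Interferon gamma acts at the GAS element (searched as TTCNNNGAA, the same on both strands), and type I interferon at the ISRE (searched on both strands as GAAA repeated after any 2 bases). Windows of 300 bases, 250 before and 50 after each annotated start, came from RefSeq (GRCm38.p6) and were found for 12 of the 17 family genes. GAS letters were in 6 of these 12 windows and in 8.30% of all 32851 windows. ISRE letters were in 8 of 12 and in 3.44% of all windows. Windows that held both were 6 of 12, against 0.454% of all. The following 5 stretches are shown because they share an arrangement, with the GAS letters (first capitals) starting 11 bases before the ISRE letters (second capitals) and 2 bases between them.
Igtp (chr11:58199501-58199541, plus strand): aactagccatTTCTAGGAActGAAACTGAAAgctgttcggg
Irgm2 (chr11:58214892-58214932, plus strand): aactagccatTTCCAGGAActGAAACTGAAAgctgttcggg
Tgtp1 (chr11:48992304-48992344, minus strand): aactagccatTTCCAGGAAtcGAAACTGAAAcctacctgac
Tgtp2 (chr11:49064263-49064303, minus strand): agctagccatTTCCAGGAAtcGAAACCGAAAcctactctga
Gm12185 (chr11:48927238-48927278, minus strand): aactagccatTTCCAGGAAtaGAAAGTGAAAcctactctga
This arrangement, noticed after the windows had been read, occurred in 5 of the 32851 windows, and all 5 belonged to this family. It began between 88 and 45 bases before the start. These genes are related copies and the windows are not independent of each other. Those of Tgtp2 and Gm12185 matched at 285 of 300 bases, those of Irgm2 and Igtp at 244. The bases before the GAS letters were also alike, and in 4 of the 5 stretches the 10 bases read aactagccat.

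Irgm1 and Gm12250 held other arrangements, and their windows are given whole. In Irgm1 the capitals are 2 overlapping ISRE matches with no GAS letters. In Gm12250 they are an ISRE match on the other strand, a GAS match and a further ISRE match on the other strand, in that order.
Irgm1 (chr11:48871371-48871670, minus strand): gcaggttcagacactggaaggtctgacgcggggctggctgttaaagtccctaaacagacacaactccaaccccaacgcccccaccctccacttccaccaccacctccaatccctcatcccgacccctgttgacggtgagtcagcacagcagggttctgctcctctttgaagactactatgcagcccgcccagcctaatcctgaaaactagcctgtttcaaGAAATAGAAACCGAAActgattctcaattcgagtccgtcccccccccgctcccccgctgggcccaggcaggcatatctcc
Gm12250 (chr11:58183593-58183892, plus strand): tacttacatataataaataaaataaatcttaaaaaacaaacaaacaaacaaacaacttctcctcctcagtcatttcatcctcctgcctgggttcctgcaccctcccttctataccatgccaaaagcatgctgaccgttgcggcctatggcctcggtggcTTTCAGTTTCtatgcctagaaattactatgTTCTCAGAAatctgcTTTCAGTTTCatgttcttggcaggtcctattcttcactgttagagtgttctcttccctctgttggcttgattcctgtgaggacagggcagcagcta
The window of Ifi47, whose rise was 20.6-fold, held none of these letters, and other annotated starts of that gene were not analysed here. The window of 9930111J21Rik1 held ISRE letters after the start, and those of 9930111J21Rik2, Gm5431 and Irgq held neither. The windows of 9930111J21Rik1 and 9930111J21Rik2 matched at 283 bases with 0 mismatches. That of 9930111J21Rik2 ended inside the stretch with the ISRE letters, so this contrast comes from where the window ends. A match of letters is a description of the sequence, and binding was not measured.

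**Figure D2:**
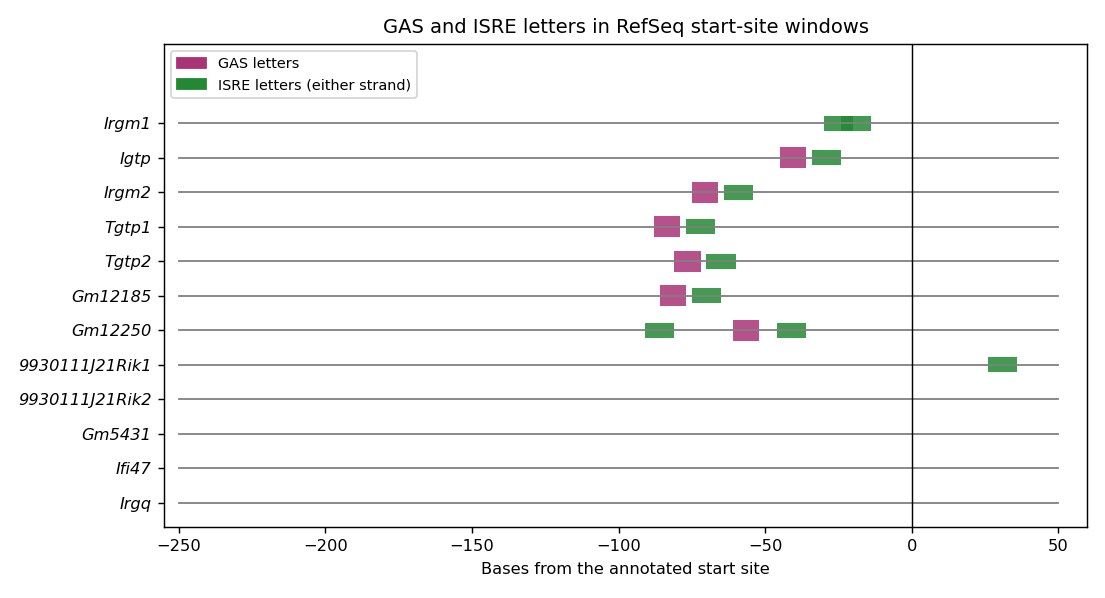
Positions of GAS (purple) and ISRE (green) letters in the RefSeq windows of 12 family genes, in bases from the annotated start site (horizontal axis, vertical line at the start). Igtp, Irgm2, Tgtp1, Tgtp2 and Gm12185 show the same pair side by side, and Ifi47, Irgq, Gm5431 and 9930111J21Rik2 show none. The window of 9930111J21Rik2 ends inside the stretch that holds the ISRE letters of 9930111J21Rik1.

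The IRG genes lie in clusters, and further annotated genes of the family were examined from a list fixed with the members. Of 9 such genes, 7 had a row, 6 rose at least 2-fold and 1 was lower by less than 2-fold. Gm12250, which encodes the effector Irgb10, had log2 levels of 8.82, 5.44, 6.83 and 6.51 in PBS and of 12.29, 12.37, 11.86 and 11.89 in SP. Its PBS arrays spanned 3.38 log2 units and its SP arrays 0.51. Gm12250 rose 36.8-fold, the largest change in the family (log2 difference 5.20, standard error 0.61, adjusted p = 0.000295 by limma), and held rank 10 of all rows. Gm4951 and Gm4841, which lie beside Iigp1 on chromosome 18, rose 7.98-fold and 4.19-fold (adjusted p = 0.000416 and 5.83e-05 by limma). Gm12185, between Irgm1 and Tgtp2 on chromosome 11, rose 6.44-fold (adjusted p = 0.000483 by limma). It split the SP arrays, with 10.21 and 10.30 in replicates 1 and 2 against 8.98 and 8.90 in replicates 3 and 4. The rows of 9930111J21Rik1 and 9930111J21Rik2 rose 3.08- and 3.14-fold. Their values on the 8 arrays differed by less than 0.10 log2 units from each other, so the probes of these near copies may not be separate. Irgq, a relative that lacks an intact nucleotide-binding motif, was lower by -0.28 log2 units (5.70 ± 0.11 in PBS and 5.42 ± 0.11 in SP, SD, n = 4, adjusted p = 0.0333 by limma). That difference was 0.0049, not called, with each array centred on its median.

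**Figure D3:**
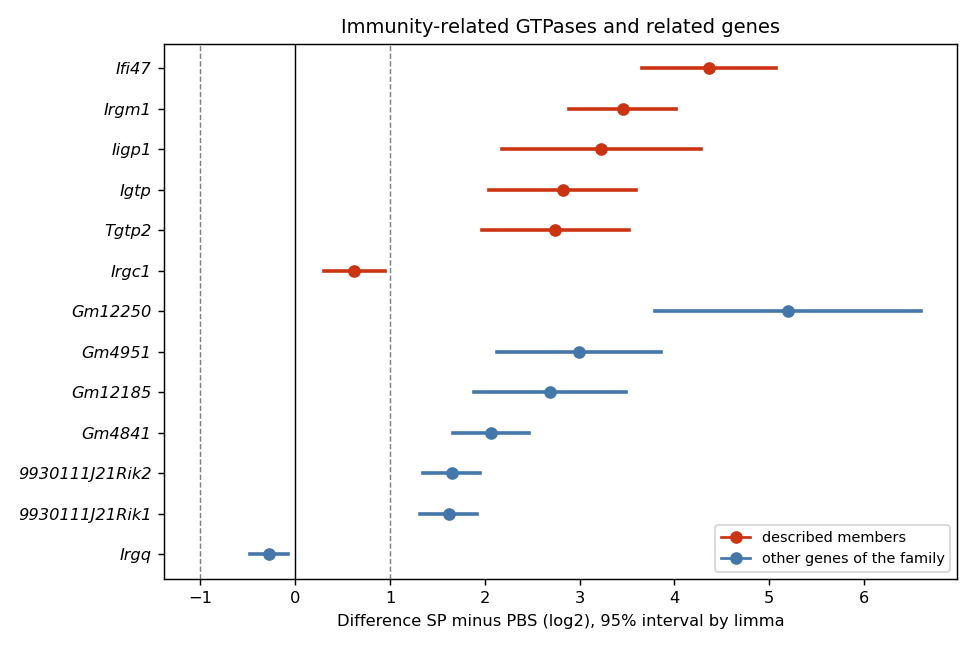
Difference between SP and PBS on the log2 scale (horizontal axis) for the 6 measured members (red) and 7 other genes of the family (blue), with 95% intervals from limma. Dashed lines mark 2-fold. The intervals of 11 genes lie wholly above the 2-fold line, Irgc1 is between 0 and that line, and Irgq is just below 0.

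Order along the chromosomes was taken from the RefSeq annotation of GRCm38.p6. A first cluster on chromosome 11 runs from Irgm1 over Gm5431, Gm12185, 9930111J21Rik1, Tgtp1, 9930111J21Rik2 and Tgtp2 to Ifi47. A second on the same chromosome holds Gm12250, Igtp and Irgm2, and the cluster on chromosome 18 holds Gm4951, Gm4841, F830016B08Rik and Iigp1. Irgc1 and Irgq lie near each other on chromosome 7. To see whether other genes of these regions changed, the protein-coding genes inside them and the nearest 2 with a row on each side were compared, a choice made after the values had been seen. Of 19 such genes, 5 rose and 0 fell by 2-fold or more, against 6.37% and 11.3% of all rows. At any size, 7 were called higher and 4 lower, against 21.5% and 22.6% of all rows. The median log2 difference was 0.017. Psme2b, which lies inside the first cluster and is a near copy of the proteasome activator gene Psme2, was higher by 1.99 log2 units (adjusted p = 1.86e-05 by limma). Olfr1395, an olfactory receptor gene beyond Ifi47, was at 5.02 ± 0.07 in PBS and 6.80 ± 0.66 in SP (adjusted p = 0.00157 by limma). Smim3, beside Iigp1, was higher by 1.23 log2 units (0.0260 by limma). The other 2 were Kcnn4 and Smg9 near Irgc1, at 2.06 and 1.23 log2 units. On the other side of the first cluster Trim41 and Trim7 differed by 0.46 and -0.37, and Gemin5, Zfp692 and Zfp672 around the second cluster were lower by -0.48, -0.81 and -0.49 log2 units (adjusted p from 0.000338 to 0.0374 by limma).

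Within each group the risers varied together from array to array. PBS replicate 1 was the highest PBS array for all 5 of Irgm1, Igtp, Iigp1, Ifi47 and Tgtp2, an order found in 17.3% of all rows. Their mean was 9.66 in that array and 8.13, 8.49 and 8.44 in PBS replicates 2 to 4. In SP, replicates 1 and 2 were above replicates 3 and 4 for all 5, also found in 17.3% of all rows, with means of 12.23, 12.21, 11.67 and 11.88. With the 6 other family genes that rose, PBS replicate 1 was highest for 9 of 11 and SP replicates 1 and 2 were above 3 and 4 for 11 of 11. The PBS range was wider than the SP range for all 5 members (1.29 to 2.16 against 0.41 to 0.86 log2 units). These genes are interferon targets, so their shared order is not independent evidence from each gene. Without PBS replicate 1, the log2 differences of the 5 genes were larger, at 3.66 for Irgm1, 3.11 for Igtp, 3.72 for Iigp1, 4.67 for Ifi47 and 3.09 for Tgtp2.

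Ifng and the mean levels of lymphocyte markers followed the same order. Ifng, which encodes interferon gamma, had log2 levels of 6.08, 5.52, 5.78 and 5.34 in PBS and of 7.39, 7.63, 6.27 and 6.26 in SP. It was highest in PBS replicate 1 within PBS, and SP replicates 3 and 4 were about 1 log2 unit below SP replicates 1 and 2. The mean of 6 T cell markers was 6.01 in PBS replicate 1 against 5.34 to 5.56 in the other PBS arrays. In SP it was 6.43 and 6.61 in replicates 1 and 2, and 5.59 and 5.495 in replicates 3 and 4. The mean of 5 NK cell markers was 5.35 in PBS replicate 1, 5.67 and 5.65 in SP replicates 1 and 2, and 5.07 and 5.05 in SP replicates 3 and 4. Among these, Klrb1c (4.57 to 5.07) and Eomes (4.57 to 5.03) lay near the floor of 4.33 to 4.90, and Gzma was brightest (6.18 to 7.34). In PBS, Ncr1 was highest in replicate 3 (5.16, against 5.15 in replicate 1). Of these 11 markers 1, Cd3d, was called between the groups, 1.62-fold higher in SP, and it did not follow the order, with replicate 3 highest in PBS (5.14) and in SP (6.22). The mean of 5 B cell markers followed it (9.07 against 8.10 to 8.38 in PBS, and 6.97 and 7.37 against 6.03 and 6.08 in SP) but was lower in SP than in PBS. In SP replicates 3 and 4 the T cell and NK cell means lay within the PBS range, while each of the 5 IRG genes was at least 1.18 log2 units above every PBS array. The PBS part of the order was not particular to lymphocytes. PBS replicate 1 was also highest for the means of alveolar macrophage (8.67), monocyte and macrophage (9.12) and fibroblast markers (9.82). Alveolar type 2, ciliated, club and endothelial means were highest in PBS replicate 2. None of these other lists had SP replicates 1 and 2 both above 3 and 4. The part of lymphocytes or of other cells in the order of the arrays was not tested.

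**Figure D4:**
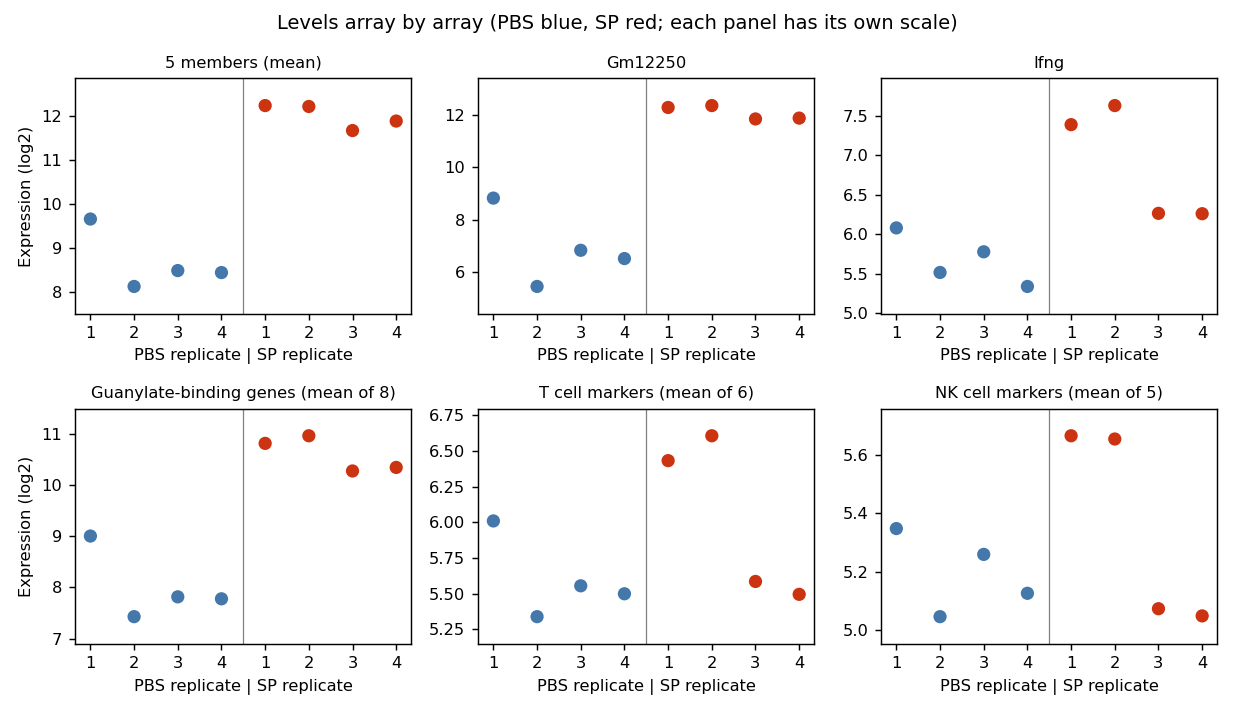
Log2 level on each array (horizontal axis: PBS replicates 1 to 4 in blue, then SP replicates 1 to 4 in red) of the mean of 5 IRG members, Gm12250, Ifng and the means of 8 guanylate-binding protein genes, 6 T cell and 5 NK cell markers, each panel on its own scale. PBS replicate 1 is the highest PBS array in every panel, and SP replicates 1 and 2 lie above SP replicates 3 and 4 in every panel.

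The labelled cell type was checked against markers. Neutrophil markers were bright, with means of 7 genes per array of 12.95 to 13.17 in PBS and 12.43 to 13.02 in SP. Of these 7 genes, 3 (Retnlg, Mmp8 and Mmp9) were lower in SP and none changed 2-fold, and Ly6g had no matched row. Monocyte and macrophage markers had means of 8.32 to 9.12 in PBS and 8.71 to 10.03 in SP, with 3 of 6 higher, 2 of them by over 2-fold, and 0 lower. Alveolar macrophage markers were lower for 4 of 6 genes, with means of 7.83 to 8.67 in PBS and 6.34 to 7.15 in SP. B cell, alveolar type 2, ciliated, club and endothelial markers were lower for 5 of 5, 6 of 6, 4 of 4, 3 of 3 and 5 of 6 genes, and fibroblast markers for 2 of 5. Their means spanned 8.10 to 13.50 in PBS for these 6 lists and 6.03 to 11.98 in SP. On every PBS array the mean of the club markers (13.18 to 13.50) was above that of the neutrophil markers. Alveolar type 2 means were 11.60 to 12.19 in PBS. In SP the club means were 11.40 to 11.98 and the alveolar type 2 means 9.51 to 10.96. The PBS samples thus held bright epithelial RNA beside that of neutrophils. What these cells contributed to the IRG signals was not tested.

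The genes that induce the family were compared next. In the interferon gamma pathway, 5 of the 8 genes reported here rose at least 2-fold and 0 fell that much. Ifng was 2.31-fold higher, with a limma adjusted p of 0.0220. That call was lost by the methods' t-test (0.0534) and when PBS replicate 2 (0.0525), PBS replicate 4 (0.0588) or SP replicate 1 (0.0606) was left out. The interferon gamma receptor chains went opposite ways, Ifngr2 higher by 0.65 and Ifngr1 lower by -0.57 log2 units (adjusted p = 0.00272 and 0.00958 by limma). The Ifngr1 call was lost with centred arrays (-0.29, 0.114). Irf1, a transcription factor that activates further interferon targets, rose 3.27-fold, and the kinase gene Jak2 3.34-fold. Irf8 was 2.37-fold higher (limma adjusted p = 0.0218), its groups overlapped, and its call was lost by the methods' t-test and on leaving out any of 4 arrays, PBS 3, PBS 4, SP 1 and SP 2 (0.0530 to 0.0592). Socs1, the feedback inhibitor of JAK kinases, was at 6.17 ± 0.45 in PBS and 10.85 ± 0.25 in SP (SD, n = 4), a 25.5-fold rise with a limma adjusted p of 4.79e-06. Jak1 was not called (0.29, limma adjusted p = 0.187), but was with centred arrays (0.57, 0.0232).

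In the type I interferon pathway, 4 of 7 genes were at least 2-fold higher. Stat2 rose 6.93-fold, Irf7 5.21-fold, Irf9 2.52-fold and the receptor gene Ifnar1 2.29-fold. Not all genes of either pathway had the IRG order of arrays. PBS replicate 3 and not replicate 1 was the highest PBS array for Irf1 (11.04 against 10.92), Jak2 (10.52 against 10.25) and Socs1 (6.44 against 6.34), while SP replicates 1 and 2 were above 3 and 4 for all 3 genes. For Irf7, PBS replicate 1 was at 9.89, below replicates 3 and 4 (10.59 and 10.65), and for Irf9 it was at 10.74, also below them (11.12 and 11.07). The SP arrays of Irf7 and Irf9 lay within 0.11 and 0.15 log2 units of each other. Tyk2 and Ifnar2 were higher by 0.94 and 0.60 log2 units, and Irf3 was not called (0.13, adjusted p = 0.489 by limma), but was with centred arrays (0.41, 0.0278) and with another quantile normalization (0.29, 0.0476).

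IRG proteins reach the vacuole with help from the ubiquitin-like conjugation system of autophagy, and work beside guanylate-binding proteins. The conjugation genes changed in both directions, in counts near the shares of all rows. Of 10, 0 rose and 1 fell by 2-fold or more, against 6.37% and 11.3% of all rows. With 3 smaller rises and 2 smaller falls, 3 were called higher and 3 lower, against 21.5% and 22.6% of all rows. The median log2 difference of the 10 genes was -0.18. Atg5 and Atg16l1, whose products form the complex that attaches the ubiquitin-like proteins to membranes, were higher by 0.59 and 0.57 log2 units (adjusted p = 0.00574 and 0.00320 by limma). Among the ubiquitin-like proteins, Map1lc3a was at 9.06 ± 0.13 in PBS and 7.80 ± 0.07 in SP (SD, n = 4), 2.40-fold lower with a limma adjusted p of 1.95e-05. Gabarapl1 and Gabarapl2 were lower by -0.42 and -0.44 log2 units and Gabarap was higher by 0.26. With centred arrays neither of the first 2 was called, and Gabarap lost its call when dim rows were left out (0.0601), with another quantile normalization (0.12, 0.133), with the replicate block (0.0558) and without PBS replicate 1 or SP replicate 1 (0.0550 and 0.0505). Atg3, Atg7, Atg12 and Map1lc3b were not called, with log2 differences from -0.38 to 0.49. Each was called under some alternative, Atg12 with centred arrays (0.77, adjusted p = 0.0130 by limma), Atg7 and Map1lc3b with another quantile normalization (-0.43 and -0.31, 0.0183 and 0.0290), and Atg3 with array weights (0.0457) or without PBS replicate 2 (0.0257). Of the guanylate-binding protein genes, 8 of 11 had a row, 8 were higher, and 7 were at least 2-fold higher. Gbp3 rose 21.5-fold and Gbp2b, the smallest, 1.51-fold. As in the IRGs, the mean of the 8 genes was highest in PBS replicate 1 within PBS (9.01 against 7.43 to 7.82) and higher in SP replicates 1 and 2 (10.82 and 10.97) than in replicates 3 and 4 (10.28 and 10.35). Trim21 and Traf6, ubiquitin ligases recruited to such vacuoles, rose 9.46- and 4.55-fold, and the cargo receptor gene Sqstm1 was 1.62-fold higher.

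**Figure D5:**
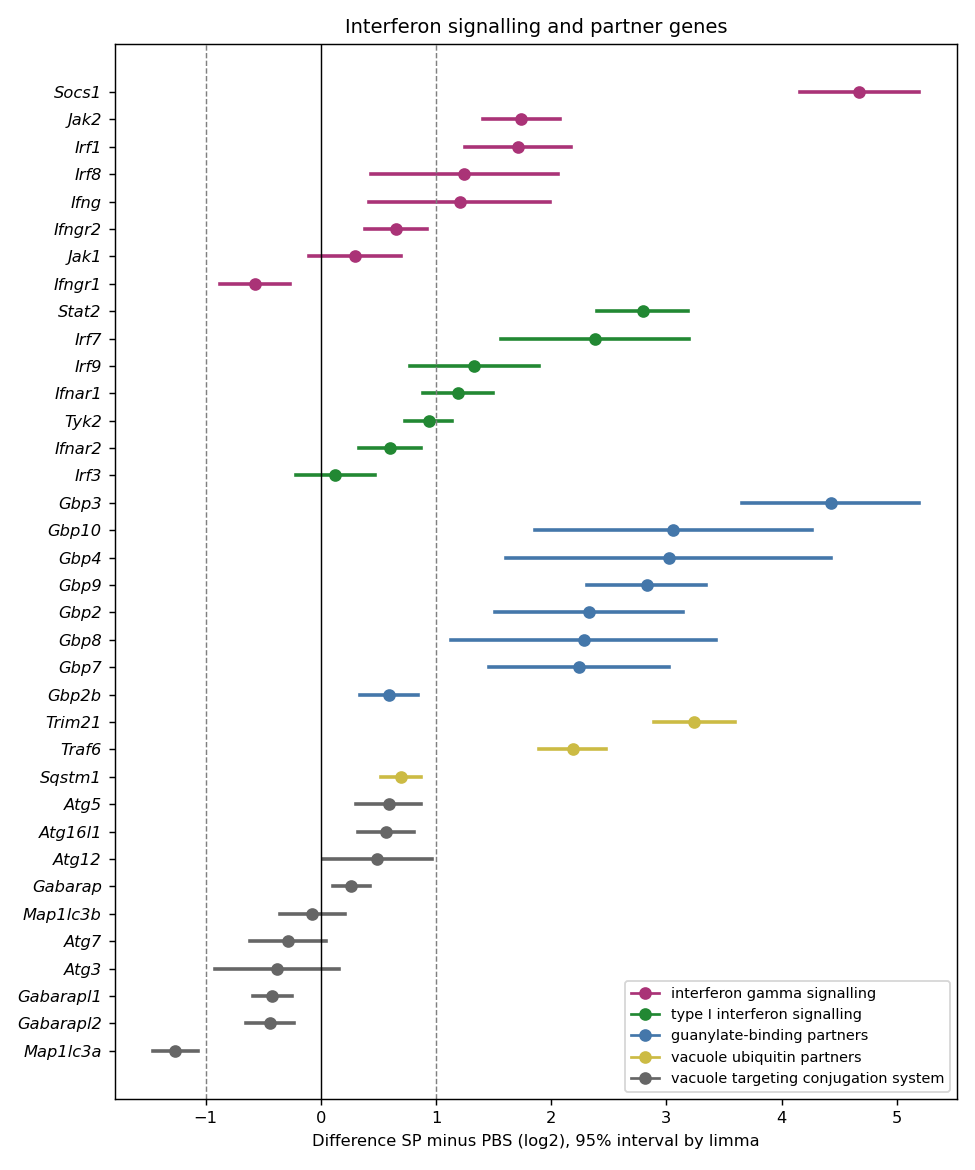
Difference between SP and PBS on the log2 scale (horizontal axis) with 95% intervals from limma for 36 genes around the IRGs, coloured by list. Guanylate-binding and ubiquitin partners lie above 0, while the conjugation genes (grey) lie between -1.26 and 0.59.

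The genes with a profile most like the IRGs were found by distance. Each gene's PBS mean was subtracted, and the Euclidean distance over the 8 arrays to the mean profile of Irgm1, Igtp, Iigp1, Ifi47 and Tgtp2 was taken for 19830 genes. The nearest were Ccl5 (distance 0.80 log2 units), Klhl6 (0.80), Herc6 (0.86), Ms4a6d (0.89) and Gm4070 (0.96), against a median of 6.62 over all genes. This distance depends largely on the size of the SP rise, and the 5 genes had log2 differences of 3.02 to 3.63. Among the 5, only Ms4a6d did not have SP replicates 1 and 2 above 3 and 4, with replicate 4 highest (12.40). Ccl5, a chemokine for T cells and monocytes, had log2 levels of 9.37, 7.72, 8.72 and 8.32 in PBS and of 12.26, 12.35, 11.95 and 12.08 in SP. It showed the same high PBS replicate 1 and low PBS replicate 2. Herc6, a ubiquitin ligase that attaches ISG15 in mice, rose 10.5-fold. Of the 5 genes that make up the mean profile, Irgm1 was nearest to it (0.63) and Ifi47 farthest (2.11).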

How the data were processed

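RNA of 8 lung neutrophil samples, 4 PBS and 4 SP by their titles, was measured on 1 array each. The deposited values are log2 intensities that the authors made by RMA, which corrected background and, per the methods, probe GC content and sequence, quantile-normalized the arrays and summarised probes by gene (the submitters' notes name Affymetrix Expression Console and Partek). The genome build behind the mapping is not given in the sources used here. Rows carry accessions, and 19915 of 24625 (80.9%) were matched, without versions, to symbols of the RefSeq table of GRCm38.p6. No symbol named here needed a choice between rows. All rows were compared by limma 3.58.1 in R 4.3.3 (lmFit, eBayes, two-sided, Benjamini-Hochberg over all rows), with thresholds of adjusted p 0.05 and 2-fold taken from the methods. On simulated data of 24625 independent rows, limma recovered 80% of rows changed by 1 log2 unit and 98% of those changed by 2, with 7 false calls. Only 200 rows were changed there, and the changes of 1 unit were all rises and those of 2 units all falls. In the data 44.1% of rows were called, so these rates do not carry over to them. Members, lists and alternatives were chosen with earlier results of these data known, so counts over lists are descriptions. Named genes were the members, their listed relatives and partners, markers, and the 5 nearest profiles. Neighbouring genes were added later. Alternatives comprised the methods' t-test (one-way ANOVA), other priors, scalings and filters, limma treat, a replicate block and leaving out each sample. The number of arrays limits precision. Results for some genes are not reported here.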

Additional observations from a re-analysis of the deposited data

Results flagged for a closer look

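In 9930111J21Rik1, PBS replicate 2 stood apart from the other PBS arrays, with a log2 level of 10.03 against 10.45 to 10.53. Its gap to the nearest array was 0.8296 of the range of the group, just past the limit of Dixon's test for 4 samples. Such a gap was looked for in 26 groups of 4 arrays (13 family genes, PBS and SP) and found in 1, about what chance gives at 1 in 20. PBS replicate 1, the highest PBS array for all 5 risers among the members, did not pass this limit for any of them.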

How the results depend on the processing

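Irgm1, Igtp, Iigp1, Ifi47, Tgtp2 and the 6 other family genes that rose stayed called and higher in SP under all 17 alternatives. Irgm1 ranged from 3.23 to 3.73, Igtp from 2.54 to 3.11, Iigp1 from 2.9997 to 3.72, Ifi47 from 4.14 to 4.67, Tgtp2 from 2.56 to 3.09 and Gm12250 from 4.71 to 5.84 log2 units. Irgc1 ranged from 0.51 to 0.91 and lost its call only when the test asked for more than 2-fold (limma treat). Irgq was lost under 7 alternatives and turned to 0.0049 with centred arrays, as Map1lc3b did to 0.21, where centring adds 0.28 to every SP difference. That scaling gave 2375 higher and 1896 lower rows at 2-fold, against 1568 and 2773, and another quantile normalization gave 1878 and 2198. Of 44 partner and relative genes, 38 were called, and 17 by limma treat. The 1 gene at least 2-fold lower (Map1lc3a) became 0 by treat and with centred arrays. Of 59 marker genes, 36 were called and 8 by treat, 25 were at least 2-fold lower and 8 by treat, and 2 were at least 2-fold higher, a count of 1 by the methods' t-test, 6 with array weights, 5 with centred arrays, 0 by treat and 1 to 3 without any single sample. The labels do not say whether same-numbered arrays were paired, and correlations of their deviations (0.016, 0.030, 0.35 and -0.27) cannot settle it. With the replicate block (Gabarap lost) 6 of 6 members and 37 of 44 partner and relative genes were called.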
